A study of Homo sapiens with 4 samples.

Results

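The 9 genes described here are those of plasminogen activation and of the tissue factor start of coagulation: PLAU, PLAUR and PLAT, the serpins SERPINE2 and SERPINB2, and F3, TFPI, TFPI2 and THBD. They were chosen by name, as the rows of the count tables that carry these symbols, and all 9 were found among the 61228 gene rows. RNA-seq libraries came from H1792, an established human lung cancer cell line whose genotype is labelled WT, grown for 96 h either in ACBI1 (1 mM by the labels, a unit the counts cannot check) or in the solvent DMSO. Each treatment had 2 libraries, 4 in all, and both groups share the line, the culture medium and the time. ACBI1 is a degrader that brings the ATPases SMARCA2 and SMARCA4 and the subunit PBRM1 of the SWI/SNF chromatin remodelling complexes to the VHL ubiquitin ligase. A single cell line in culture holds no blood cells or vessel wall, and proteins were not analysed here.

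Plasminogen is an inactive protease made mainly in the liver. Urokinase (PLAU), held at the cell surface by its receptor (PLAUR), and tissue plasminogen activator (PLAT) cut it to plasmin, which digests fibrin and matrix proteins and releases growth factors, and serpins trap both activators. Tissue factor (F3) is the membrane receptor for clotting factor VIIa and starts the cascade that ends in thrombin. TFPI blocks that first step, and thrombomodulin (THBD) turns thrombin from a clotting enzyme into an activator of protein C. Carcinoma cells commonly make urokinase, its receptor and tissue factor, and these have been studied in invasion and in the thrombosis that accompanies cancer.

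Counts in genes summed to between 64281850 and 86010100 per library. Values are given as CPM, counts per 1000000 counts of a library after TMM scaling, and changes as log2 ratios of ACBI1 over DMSO from edgeR's quasi-likelihood test with Benjamini-Hochberg adjustment over all 19159 genes tested. A gene was called at an adjusted p under 0.05. The labels number the libraries as replicates and do not say that they came from separate cultures, so p-values measure only the spread between these libraries. Transcripts of the degrader's targets were present in every library. SMARCA4 averaged 250 ± 47.8 CPM under DMSO and 406 ± 11.3 CPM under ACBI1 (SD, n = 2), and neither it nor SMARCA2 nor PBRM1 was called. The compound acts on the proteins, so these transcripts do not check the labels.

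All 9 genes were tested, and all 9 were lower with ACBI1 in the sense that both ACBI1 libraries lay under both DMSO libraries in TMM-scaled CPM. For THBD (182 CPM in ACBI1 replicate 1, 184 in DMSO replicate 2) the separation depends on that scaling. So does that of TFPI (143 CPM in ACBI1 replicate 2, 150 in DMSO replicate 1). Such a separation towards lower values was found in 32.1% of all tested genes. Urokinase, its receptor, tissue plasminogen activator, SERPINE2 and TFPI2 fell past the threshold, which makes 5 of 9, while 10.6% of all tested genes were called lower and 6.75% were called higher. SERPINB2, F3, TFPI and THBD were not called. A log2 change of -1 or below was reached by 7 of the 9 and by 14.1% of all tested genes, and the median log2 change was -1.72 over the 9 genes and 0.0080 over all tested genes. In bulk RNA, fewer cells that make a transcript and less of it per cell cannot be told apart.

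**Figure D1:**
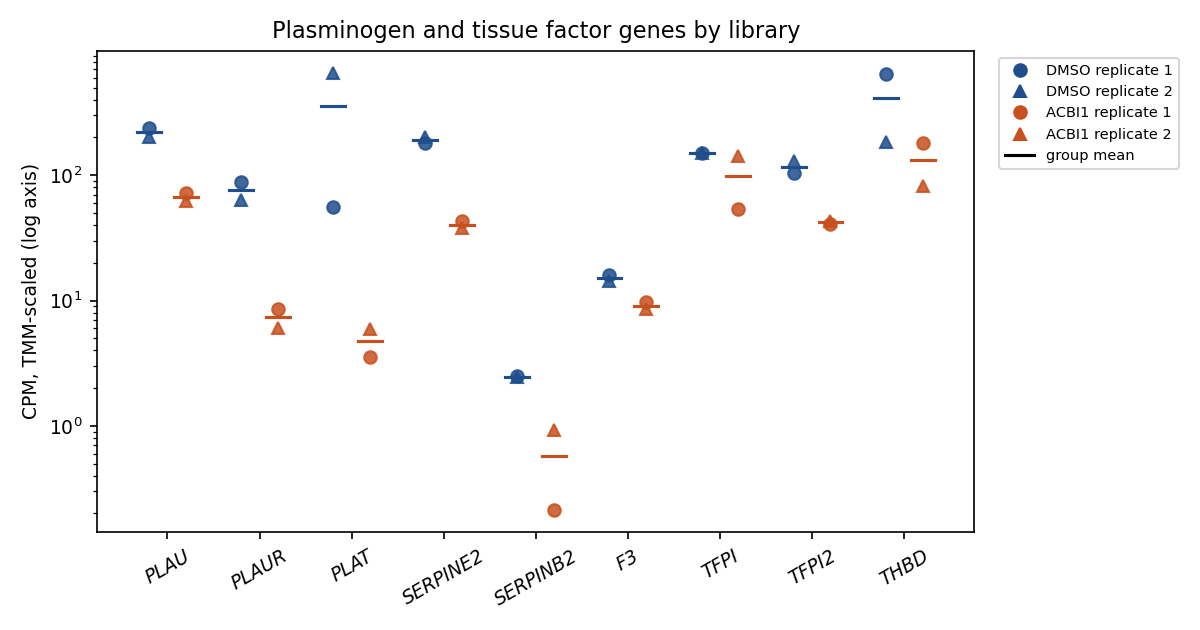
TMM-scaled CPM (log axis) of the 9 genes in each library, with circles for replicate 1, triangles for replicate 2 and short lines for group means. Both ACBI1 libraries lie under both DMSO libraries for each gene, and the DMSO libraries stand far apart for PLAT (56.2 and 659 CPM) and THBD (646 and 184 CPM).

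Promoter sequences are shown for 4 of these genes because they differed in call and in sequence. PLAUR and TFPI2 were called lower and hold a match to the AP-1 motif, while PLAU was called lower and holds none. F3 holds a pair of matches and was not called, though both its ACBI1 libraries lay under both DMSO libraries. A difference in response between these genes was not tested. AP-1 is a family of stress- and growth-responsive transcription factors. Each sequence is the 250 bases before the RefSeq start of the gene on GRCh38.p14, on the strand of the gene, 5′ to 3′, with matches to TGANTCA in capitals.
PLAUR: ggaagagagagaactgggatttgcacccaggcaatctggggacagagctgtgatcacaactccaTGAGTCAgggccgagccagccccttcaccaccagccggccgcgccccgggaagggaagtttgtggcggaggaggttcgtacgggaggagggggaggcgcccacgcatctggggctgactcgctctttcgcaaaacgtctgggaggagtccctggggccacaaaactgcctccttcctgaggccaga
TFPI2: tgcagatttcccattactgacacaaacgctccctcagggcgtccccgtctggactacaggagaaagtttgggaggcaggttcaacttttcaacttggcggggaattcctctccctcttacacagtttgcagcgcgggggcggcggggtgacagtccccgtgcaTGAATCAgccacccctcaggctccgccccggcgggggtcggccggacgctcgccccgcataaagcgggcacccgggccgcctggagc
F3: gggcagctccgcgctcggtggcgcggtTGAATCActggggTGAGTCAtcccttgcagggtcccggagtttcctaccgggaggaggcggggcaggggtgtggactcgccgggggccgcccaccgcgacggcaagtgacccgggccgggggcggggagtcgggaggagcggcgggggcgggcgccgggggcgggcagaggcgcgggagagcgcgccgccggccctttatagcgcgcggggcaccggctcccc
PLAU: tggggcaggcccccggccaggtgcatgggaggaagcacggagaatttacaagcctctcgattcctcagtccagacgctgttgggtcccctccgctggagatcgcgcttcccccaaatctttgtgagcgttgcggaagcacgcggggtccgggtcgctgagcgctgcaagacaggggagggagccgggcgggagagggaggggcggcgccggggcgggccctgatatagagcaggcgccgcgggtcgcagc
The windows are chr19:43670170-43670419 (minus strand) for PLAUR, chr7:93890754-93891003 (minus) for TFPI2, chr1:94541760-94542009 (minus) for F3 and chr10:73910882-73911131 (plus) for PLAU. The match begins 186 bases upstream of the start in PLAUR and 87 bases upstream in TFPI2. In F3 the matches begin 223 and 210 bases upstream.

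RefSeq promoters were matched for 7 of the 9 genes, those other than PLAT and THBD. Searched on both strands, TGANTCA was found in 4 of the 7 (PLAUR, SERPINB2, F3 and TFPI2) and in 6.57% of 35114 promoter windows of the same length. Of those 4 genes 2 were called lower, and of the 3 without a match (PLAU, SERPINE2 and TFPI) also 2, PLAU and SERPINE2. The SP1 motif GGGCGG was in 4 of the 7 (PLAU, SERPINE2, F3 and TFPI2) and in 42.6% of all windows, and the TATA box motif TATAAA in 2 (SERPINB2 and F3) and in 10.7% of all windows. An NF-kB motif was matched in TFPI2 alone among the 7, and in 5.21% of all windows. The CRE motif TGACGTCA and the TEAD motif GGAATG were in none of the 7, and in 1.65% and 11.9% of all windows. A CRE match holds no AP-1 match, since TGANTCA has 1 base where the CRE motif has 2 between its ends. These are descriptions of letters in a short window and do not show binding, and sites outside it were not searched.

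Urokinase and its receptor both fell, with the larger fitted fall for the receptor. PLAU (chr10:73909177-73917497, GRCh38) had 238 and 203 CPM in DMSO replicates 1 and 2, and 72.0 and 62.2 CPM in ACBI1 replicates 1 and 2. The groups did not overlap, and replicates of a group lay within a factor of 1.17 of each other. Group means were 221 ± 24.5 and 67.1 ± 6.88 CPM (SD, n = 2), and the log2 change was -1.72 (SE 0.18, edgeR adjusted p 0.00453). In linear terms urokinase transcripts were 3.29-fold lower with ACBI1, with a 95% interval from 2.43 to 4.45. Another gene, C10orf55, annotated on the opposite strand, overlaps 31.1% of the exonic length of PLAU. The strand setting and how reads in shared exons were assigned are not given in the sources used here. Counts of C10orf55 may therefore include reads of PLAU. C10orf55 itself had a level of 2.62 ± 0.791 CPM in DMSO libraries against 0.689 ± 0.0683 CPM in ACBI1 libraries (SD, n = 2) and was called lower as well (log2 change -1.92, edgeR adjusted p 0.0241), though not without DMSO replicate 2 or either ACBI1 library.

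PLAUR (chr19:43646095-43670547) encodes the receptor that is tethered to the membrane by a lipid anchor and concentrates urokinase there. DMSO replicates 1 and 2 held 87.9 and 63.7 CPM of it and ACBI1 replicates 1 and 2 held 8.60 and 6.05 CPM, which rested on 11744 counts against 1167. Both ACBI1 libraries were far below the lower DMSO library. The log2 change was -3.37 (SE 0.27) with an edgeR adjusted p of 0.00234, a level 10.3-fold lower with a 95% interval from 6.59 to 16.2. The exons of PLAUR are not overlapped by other annotated genes.

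Because both genes are counted in the same library, their ratio does not depend on the scaling. There were 2.71 and 3.19 PLAU counts for each PLAUR count in the DMSO libraries, and 8.37 and 10.3 in the ACBI1 libraries. The groups did not overlap, and the ratio was 3.15-fold higher with ACBI1. The exact two-sided permutation p was 0.333, the smallest that 2 libraries against 2 allow.

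PLAT (chr8:42175233-42207724), the activator best known from endothelium and from clot-dissolving drugs, had the largest fitted change of the 9 and the widest spread. It had 56.2 and 659 CPM in DMSO replicates 1 and 2, and 3.56 and 5.98 CPM in ACBI1 replicates 1 and 2. The DMSO libraries differed from each other by a factor of 11.7, and the lower of them still lay above both ACBI1 libraries. The log2 change was -6.23 (SE 1.20) with an edgeR adjusted p of 0.0220, and its 95% interval ran from -9.15 to -3.31, so the size of the fall is poorly fixed. Leaving out either DMSO library drops the spread between them from the fit, so only the size is given. Without DMSO replicate 2 the log2 change was -3.57, and without DMSO replicate 1 it was -7.11. Without ACBI1 replicate 1 it was -5.89 and no longer called (edgeR adjusted p 0.0566).

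Sums of endothelial and fibroblast markers were, like PLAT, higher in DMSO replicate 2 than in DMSO replicate 1, as were the epithelial, blood and platelet sums. The 5 endothelial markers summed to 12.8 and 49.0 CPM in DMSO replicates 1 and 2 and to 0.123 and 0.122 CPM in the ACBI1 libraries, and the 5 fibroblast markers to 31.6 and 96.8 against 9.39 and 13.2 CPM. In both lists DMSO replicate 2 was the highest library, as it was for PLAT. With DMSO the endothelial sum was nearly all PECAM1 (30.2 ± 25.3 CPM, SD, n = 2). The defining gene CDH5 had 2 and 4 counts with DMSO and 0 in both ACBI1 libraries. From DMSO replicate 1 to replicate 2, VWF was nearly level (24 and 23 counts, 0.295 and 0.320 CPM). TEK was lower in replicate 2 (5 and 2 counts) and KDR higher (15 and 38), all at low counts. Of the endothelial list PECAM1 and VWF were called lower, and of the fibroblast list PDGFRA, DCN and LUM, with THY1 at 0 counts in both DMSO libraries. Their part in the PLAT result was not tested.

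The 5 blood markers summed to at most 0.736 CPM in any library, with CD3E and HBB at 0 in each. The 4 platelet markers summed to between 0.810 and 1.90 CPM, with PF4 and GP9 at 0 in each, and none of either list was called. Epithelial markers summed to 304 and 355 CPM with DMSO and to 144 and 141 CPM with ACBI1, and KRT8, KRT18 and KRT19 were called lower. The sum was nearly all KRT8 and KRT18. EPCAM, an epithelial adhesion gene, had 5.38 and 2.78 CPM with DMSO and 15.6 and 4.83 CPM with ACBI1, with overlap, and its log2 change of 1.32 was not called (edgeR adjusted p 0.179). CDH1, the gene of E-cadherin, had between 4 and 16 counts per library. These markers are of epithelium in general and cannot check the label of a lung cancer line.

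Of the serpin members, SERPINE2 fell and SERPINB2 was not called. SERPINE2 (chr2:223975112-224039319) encodes protease nexin, a cell-surface inhibitor of thrombin and of both plasminogen activators. DMSO replicates 1 and 2 held 181 and 201 CPM of it, and ACBI1 replicates 1 and 2 held 43.2 and 37.6 CPM. The groups were far apart and replicates close. The log2 change was -2.24 (SE 0.17) with an edgeR adjusted p of 0.00231, a 4.72-fold lower level (95% interval 3.53 to 6.32). Counts of PLAU for each SERPINE2 count were 1.32 and 1.01 with DMSO and 1.67 and 1.65 with ACBI1, without overlap (exact permutation p 0.333, the smallest possible). This ratio was 1.44-fold higher with ACBI1.

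SERPINB2 (chr18:63871692-63903890), the urokinase inhibitor known from macrophages and placenta, was the scarcest member. It had 2.49 and 2.43 CPM with DMSO and 0.212 and 0.930 CPM with ACBI1, from 203, 175, 19 and 61 counts. The ACBI1 libraries lay below the DMSO libraries and differed from each other by a factor of 4.38. The log2 change of -2.13 (95% interval -3.75 to -0.51) was not called, with an edgeR adjusted p of 0.0779. It was called by DESeq2 (adjusted p 0.00543) and by limma-voom (adjusted p 0.0418), so the call turned on the test. Without ACBI1 replicate 2 the log2 change was -3.54, and without ACBI1 replicate 1 it was -1.39. SERPINB10, which overlaps 19.9% of the exonic length of SERPINB2, had 1 count in all 4 libraries.

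**Figure D2:**
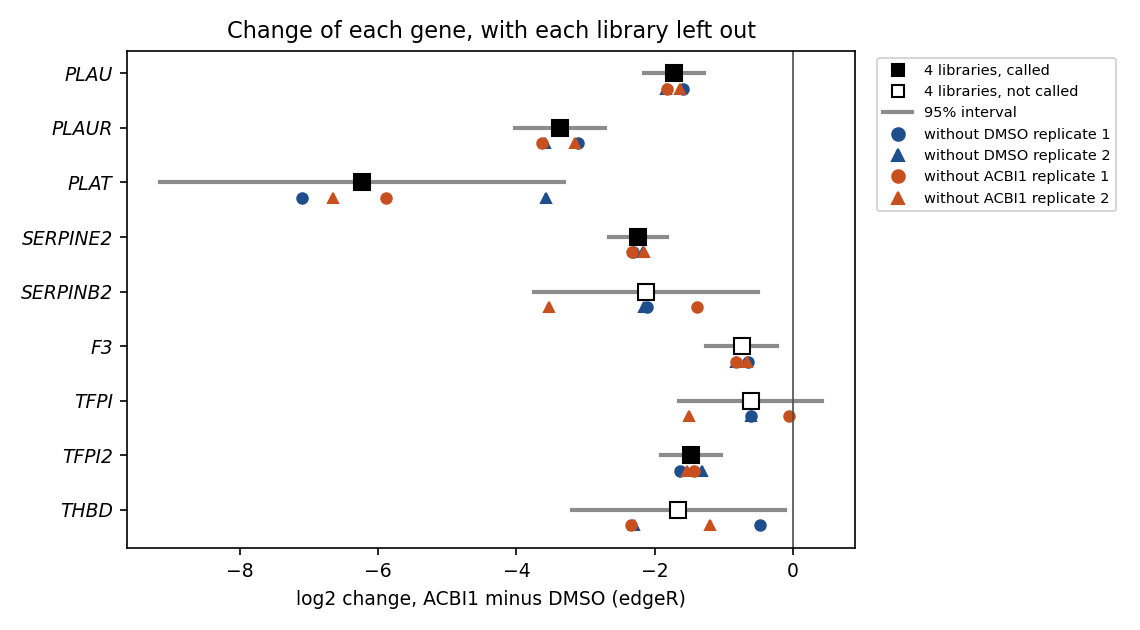
log2 change (ACBI1 minus DMSO, edgeR) of each gene with its 95% interval, filled squares for called genes, and beneath it the values with each library left out. PLAU, PLAUR, SERPINE2, TFPI2 and F3, which was not called, moved least. PLAT ranged from -7.11 to -3.57, and THBD from -2.34 to -0.48.

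Tissue factor transcripts were modest in level and small in change. F3 (chr1:94529225-94541800) had 16.1 and 14.3 CPM with DMSO and 9.70 and 8.52 CPM with ACBI1. Replicates were close and the groups did not overlap. The log2 change was -0.74 (95% interval -1.25 to -0.22), or 1.67 times less, and was not called (edgeR adjusted p 0.0621). DESeq2 called it (adjusted p 0.0198) and limma-voom did not (adjusted p 0.0590).

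Of the inhibitors named for tissue factor, TFPI2 fell and TFPI was not called. TFPI2 (chr7:93885396-93890991), a Kunitz-type inhibitor laid down in the matrix that blocks plasmin and trypsin more strongly than the tissue factor complex, had 104 and 130 CPM with DMSO and 40.8 and 43.1 CPM with ACBI1. Its groups were well separated. The log2 change of -1.48 (SE 0.18) was called with an edgeR adjusted p of 0.00644, a level 2.79-fold lower (95% interval 2.07 to 3.76).

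TFPI (chr2:187464230-187565760), the main inhibitor of tissue factor, had 150 and 151 CPM with DMSO and 53.4 and 143 CPM with ACBI1. ACBI1 replicate 2 stood just under the DMSO libraries while ACBI1 replicate 1 stood far below them. The log2 change was -0.61 with a 95% interval from -1.65 to 0.43 and was not called (edgeR adjusted p 0.363). Without ACBI1 replicate 1 it was -0.06, and without ACBI1 replicate 2 it was -1.50, so 1 library decided the size. A difference between the responses of TFPI and TFPI2 was not tested.

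Counts of F3 for each TFPI count were 0.108 and 0.0950 with DMSO and 0.182 and 0.0595 with ACBI1. The ACBI1 libraries lay on either side of the DMSO libraries (exact permutation p 1). Counts of F3 for each TFPI2 count were 0.155 and 0.110 with DMSO and 0.238 and 0.198 with ACBI1, which did not overlap (exact permutation p 0.333, the smallest possible). For PLAU against SERPINB2 the ratio was 95.5 and 83.6 with DMSO and 339 and 66.9 with ACBI1, with overlap (exact permutation p 1). All 5 ratios together therefore showed separation between groups for PLAU to PLAUR, PLAU to SERPINE2 and F3 to TFPI2, and the design allows none a p below 0.333, before or after adjustment over the 5.

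**Figure D3:**
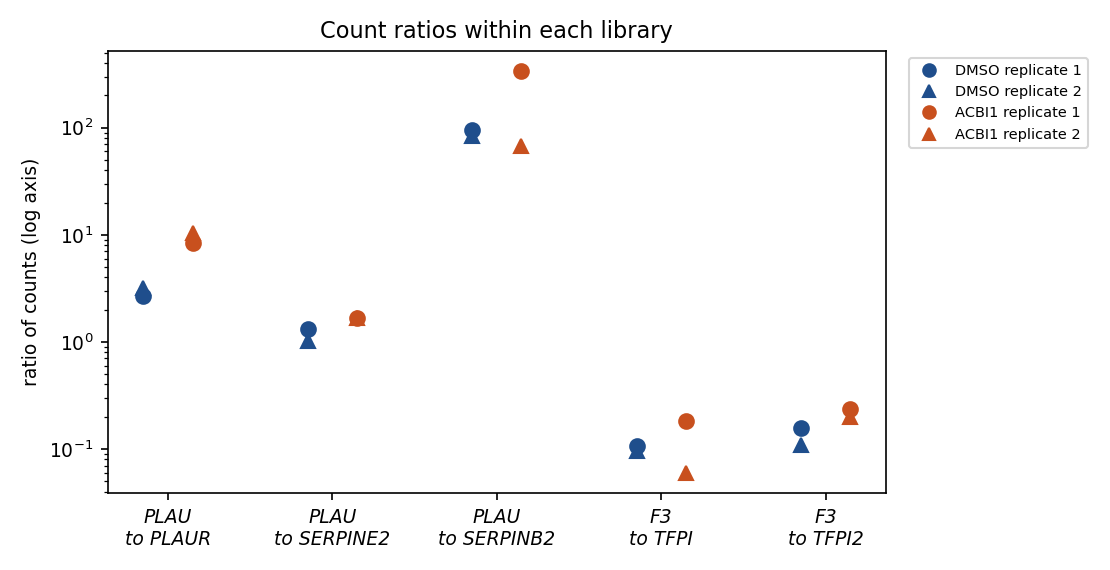
Ratio of counts of 2 genes within each library (log axis), for 5 pairs, with DMSO in blue and ACBI1 in orange. PLAU to PLAUR is 2.71 and 3.19 with DMSO and 8.37 and 10.3 with ACBI1, while the ACBI1 points of F3 to TFPI lie on either side of the DMSO points.

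THBD (chr20:23045633-23049741) encodes thrombomodulin, the thrombin cofactor for protein C, and is a gene without introns. It had 646 and 184 CPM in DMSO replicates 1 and 2, and 182 and 81.6 CPM in ACBI1 replicates 1 and 2. The highest ACBI1 library all but reached the lowest DMSO library. Replicates differed by a factor of 3.51 with DMSO and 2.23 with ACBI1, in each case with replicate 1 higher. The log2 change of -1.66 (95% interval -3.20 to -0.12) was not called, with an edgeR adjusted p of 0.126. Without DMSO replicate 1 it was -0.48, and without DMSO replicate 2 it was -2.30, in fits that drop the spread between the DMSO libraries.

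Summed over the 9 genes, the level was 1482 and 1608 CPM with DMSO and 413 and 389 CPM with ACBI1. The sum was alike between replicates although its makeup was not. THBD gave 43.6% of the summed counts in DMSO replicate 1 and 11.4% in DMSO replicate 2, where PLAT gave 41.0%, against 3.79% in replicate 1. With ACBI1, PLAT gave 0.863% and 1.54%, and TFPI 12.9% and 36.8%. PLAU, SERPINE2 and TFPI2 held steadier places. Across the 4 libraries, in the order DMSO 1, DMSO 2, ACBI1 1 and ACBI1 2, PLAU gave 16.1%, 12.6%, 17.4% and 16.0%. SERPINE2 gave 12.2%, 12.5%, 10.5% and 9.66%, and TFPI2 gave 7.01%, 8.10%, 9.88% and 11.1%.

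**Figure D4:**
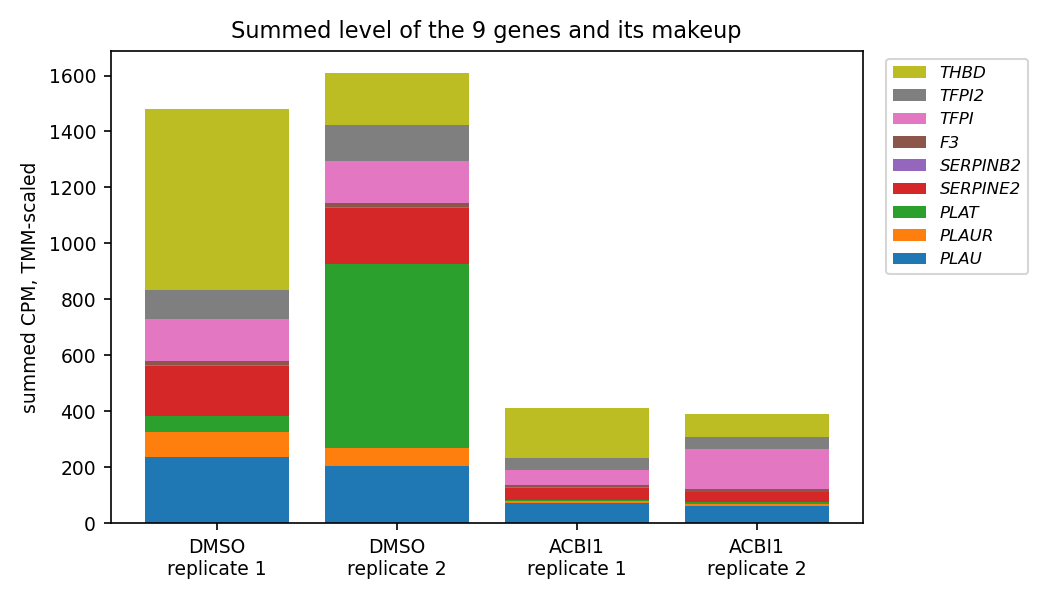
Summed TMM-scaled CPM of the 9 genes in each library, stacked by gene. The bars reach 1482 and 1608 with DMSO and 413 and 389 with ACBI1, and the tallest segment is THBD in DMSO replicate 1 and PLAT in DMSO replicate 2.

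Levels of different genes were compared per kilobase of exon (CPM per kb, over the union of GENCODE exons), and the order depends on that length. For example, TFPI (11714 exonic bases) exceeded TFPI2 and PLAUR in mean DMSO CPM (150 against 117 and 75.8) but not per kb. With DMSO the order of mean levels was THBD (101 CPM per kb), PLAU (74.8), PLAT (54.0), TFPI2 (43.6), SERPINE2 (21.5), PLAUR (17.01), TFPI (12.8), F3 (5.29) and SERPINB2 (0.896). The libraries of THBD and PLAU, of PLAU and PLAT, of PLAT and TFPI2, and of THBD and TFPI2 overlapped. The order among these 4 genes is therefore not fixed, except that PLAU (lowest library 68.9) lay above TFPI2 (highest library 48.6). From TFPI2 down neighbours in this order did not overlap. PLAT in DMSO replicate 1 (8.48 CPM per kb) also lay below SERPINE2, PLAUR and TFPI, so its place is open down to just above F3. With ACBI1 the order of mean levels was THBD (32.0 CPM per kb), PLAU (22.7), TFPI2 (15.7), TFPI (8.39), SERPINE2 (4.54), F3 (3.17), PLAUR (1.64), PLAT (0.721) and SERPINB2 (0.208). Here THBD overlapped PLAU and TFPI overlapped SERPINE2, and the other neighbours did not overlap. The level of F3 lay below that of PLAUR with DMSO and above it with ACBI1.

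The wider system was described with 58 further genes in 6 lists. Of these 34 could be tested and 11 had no count in any library. Among the 34 tested, 11 were called lower and 2 higher, beside 10.6% and 6.75% of all tested genes. Over the 34 the log2 changes had a median of -0.49, against 0.0080 over all tested genes. Without ACBI1 replicate 1, 7 were called lower and 1 higher. Among the 8 other inhibitors 5 were tested and 2 were called, both lower (median log2 change -1.64). These were SERPIND1 (heparin cofactor), with 245 counts in the DMSO libraries and 0 in the ACBI1 libraries, and SERPINA5 (protein C inhibitor), with 73 against 0. Set against a floor of 3 counts over the ACBI1 group, they were at least 82.6-fold and at least 24.6-fold lower.

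Among the 9 genes for plasminogen, its surface receptors and the clearance of urokinase, 7 were tested and 2 were called, both lower. Of all tested genes 10.6% were called lower. LRP1, the endocytic receptor that removes urokinase in complex with serpins, had a log2 change of -2.08 (edgeR adjusted p 0.0173), and MRC2, a collagen receptor that associates with the urokinase receptor, one of -1.22 (edgeR adjusted p 0.0118). Without ACBI1 replicate 1 the change of MRC2 was -1.06 and not called (edgeR adjusted p 0.0695). Plasminogen itself (PLG) had 3 to 8 counts per library and was not tested. The plasminogen-binding proteins ANXA2 and ENO1 were abundant, at 623 ± 78.6 and 1318 ± 47.3 CPM with DMSO (SD, n = 2), and were not called, with log2 changes of -0.50 and 0.14.

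Of 16 clotting factor and fibrinogen genes only 3 had enough counts to test, and 7 had none in any library. F12, the contact factor XII, rose from a mean of 9.49 ± 0.470 CPM to one of 26.4 ± 5.93 CPM (SD, n = 2; log2 change 1.48, edgeR adjusted p 0.0113) and was not called without ACBI1 replicate 1 (log2 change 1.24, edgeR adjusted p 0.0543). Exons of GRK6 overlap 14.4% of its exonic length. VWF had 47 counts with DMSO and 0 with ACBI1, at least 15.8-fold lower, and its call was lost without ACBI1 replicate 1 (edgeR adjusted p 0.0513). Prothrombin (F2) had 3 to 5 counts per library and factor VII (F7), the ligand of tissue factor, had 1 count in all.

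Receptors for thrombin and related proteases went both ways. F2RL1, a receptor activated by trypsin-like proteases and the tissue factor complex, rose from a mean of 24.9 ± 3.46 CPM to one of 80.2 ± 24.0 CPM (SD, n = 2; log2 change 1.69, edgeR adjusted p 0.0104). F2RL3, a thrombin receptor, dropped from 507 counts in the DMSO libraries to 1 in the ACBI1 libraries, a DMSO-to-ACBI1 ratio of 513 (95% exact interval for counting error, 91.6 to 20288; edgeR adjusted p 0.00231). The single count lay in ACBI1 replicate 1, so the size of the fall is poorly fixed. The fitted log2 change of -8.69 became -8.03 without ACBI1 replicate 2 and -10.91 without ACBI1 replicate 1, where the remaining ACBI1 library has 0 counts and the fitted value depends on the prior count, and it was called in both cases (edgeR adjusted p 0.00277 and 0.00302). The main thrombin receptor F2R had 88.4 ± 11.5 and 119 ± 48.4 CPM (SD, n = 2), with overlap, and was not called. PROCR, the endothelial protein C receptor, was called lower with a log2 change of -0.59 (edgeR adjusted p 0.0434), but not with scaling by library size only (edgeR adjusted p 0.0626) nor with any 1 library left out. All 8 genes of this list were tested, and their median log2 change was 0.41.

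None of the 3 vitamin K cycle genes was called. Among 14 other clade B serpins and Kunitz inhibitors 8 were tested and 4 were called, each lower (median log2 change -1.87). Of all tested genes 10.6% were called lower, with a median log2 change of 0.0080. SERPINB9, a granzyme inhibitor, fell from a mean of 67.1 ± 0.719 CPM to one of 16.2 ± 0.354 CPM (SD, n = 2; log2 change -2.05, edgeR adjusted p 0.00231). SERPINB1, an inhibitor of neutrophil elastase, had a log2 change of -1.04 (edgeR adjusted p 0.0167) and was not called without ACBI1 replicate 1 (-0.91, edgeR adjusted p 0.0909). SERPINB3 and SERPINB4, near-identical neighbours between which reads can be split or lost, had 134 and 59 counts with DMSO and 0 with ACBI1. The DMSO libraries were uneven, with 16 and 118 counts of SERPINB3 and 16 and 43 of SERPINB4 in replicates 1 and 2. The fitted log2 change of SERPINB3 was -9.95 without DMSO replicate 1 and -6.97 without DMSO replicate 2. The call of SERPINB3 was lost without either ACBI1 library (edgeR adjusted p 0.0768 and 0.0531), and that of SERPINB4 without ACBI1 replicate 1 (edgeR adjusted p 0.0637). In these clade B and inhibitor lists the fitted changes of genes with 0 counts depend on the prior count, and the medians were the same with those genes set to their bound.

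**Figure D5:**
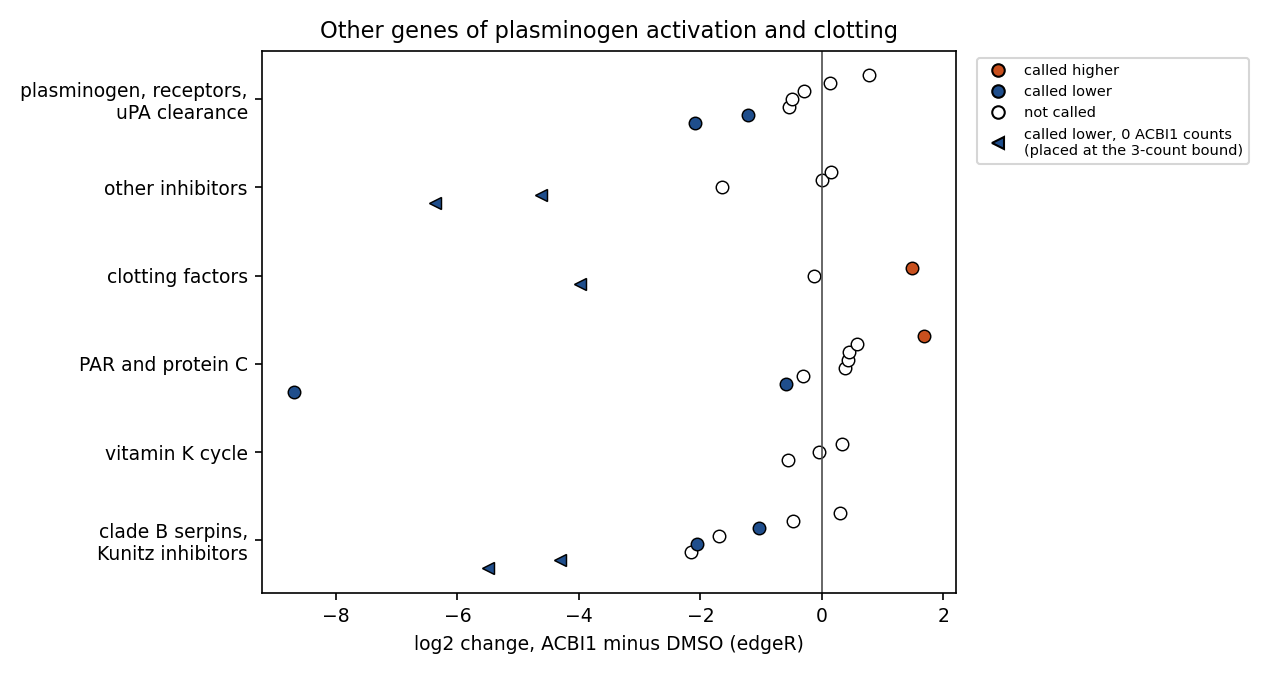
log2 change (ACBI1 minus DMSO, edgeR) of the 34 tested genes in 6 lists, coloured by call, with genes at 0 ACBI1 counts placed at the bound that 3 counts give. Of them 11 are called lower and 2, F12 and F2RL1, are called higher.

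Genes whose pattern over the 4 libraries was nearest to that of each called member were found among 11152 other tested genes averaging 5 CPM or more, by the Euclidean distance of centred log2 CPM. Nearest to PLAU were RAB27B (distance 0.0789), MSRA (0.0793) and PDLIM7 (0.0913), and 174 genes lay within 0.5. Nearest to PLAUR were INAVA (0.197), TNFAIP2 (0.219) and GREM1 (0.349), with 13 genes within 0.5. No gene came within 0.5 of PLAT, whose nearest was ATOH8 (1.27), followed by LBH (1.34) and BMF (1.52). Each of those 3 was also higher in DMSO replicate 2 than in replicate 1, such as ATOH8 with 19.0 against 4.87 CPM. Choosing genes by likeness over the same libraries largely fixes this. NUCB2 (0.144), SLC22A4 (0.150) and POLD4 (0.179) were nearest to SERPINE2, and FRMD4A (0.0524), ZSCAN31 (0.0979) and PLEKHA2 (0.0982) to TFPI2. With 4 libraries such likeness is mostly the size of the difference between groups, as the 395 genes within 0.5 of TFPI2 show.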

How the data were processed

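The deposited files hold raw read counts per gene symbol, not normalized, 1 library per file. TopHat2 2.1.1, HTSeq 0.11.0 and hg38 are named per the submitters' processing notes. The annotation, strand setting and RNA selection are not given in the sources used here, and the labels' protocols name a kit sold for DNA libraries. The 5 htseq lines for reads given to no gene (13.9% to 15.4% of the reads listed) were left out of library sizes and tests.

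Genes were filtered with filterByExpr (minimum count 10, minimum total count 15), which kept 19159 of 61228, scaled by TMM and tested in edgeR 4.0.16 under R 4.3.3 (glmQLFit, glmQLFTest, two-sided, treatment alone). The SE is the log2 change divided by the root of F, and the SD is that of CPM. Intervals of counting ratios cover counting error only. Alternatives were other scalings, filters and thresholds, a replicate block, DESeq2 1.42.0, limma-voom (limma 3.58.1) and each library left out. The scripts were tested on simulated counts. Exons, overlaps and gene positions came from GENCODE release 29 (GRCh38), matched by symbol, and may differ from the annotation counted on. Promoters came from RefSeq (GRCh38.p14).

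The members and lists were chosen with earlier results of these data known. 1 listed gene is not reported here. The text names all members, in each list up to 4 called genes, those of largest change (others only to say that they were scarce, abundant or not called), overlapping genes, the degrader's targets, markers and the nearest 3 genes in pattern.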

Additional observations from a re-analysis of the deposited data

How the results depend on the processing

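No log2 change of a member, of a named pathway gene or of C10orf55 turned its sign under the alternatives run. PLAU, PLAUR, SERPINE2 and TFPI2 were called under each of them. PLAT was not called at a threshold of 0.01 (-6.23). With no filter on low counts all 9 members were called lower, beside 3316 of all 32871 genes then tested. The log2 changes were -2.14 for SERPINB2, -0.75 for F3, -0.63 for TFPI and -1.67 for THBD. In this fit edgeR's prior degrees of freedom were infinite, so the genes' own spread was not used. DESeq2 called SERPINB2 (-2.11) and F3 (-0.73), and limma-voom called SERPINB2 (-2.52). Over all genes, DESeq2 called 2603 lower and limma-voom called 2004 of 19159 lower.

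With the replicate number as a block all 9 members were called lower, with log2 changes of -2.35 for SERPINB2, -0.74 for F3, -0.78 for TFPI and -1.50 for THBD, as were 18 other pathway genes, with 4 higher, and over all genes 4201 were lower and 3708 higher. Same-numbered libraries deviated together (r = 0.535 over 19159 genes, which are not independent), but the labels do not say that a number marks a shared batch, and with 2 pairs the pairing is not established.

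The other pathway genes called lower numbered 17 with no filter, 6 with a mean of at least 5 CPM (fewer genes tested) and 4 at a threshold of 0.01, where none was called higher (0). Over all genes, 3316 were called lower and 2202 higher with no filter, and 611 and 172 at 0.01. With each library left out, which leaves 1 library in a group that is assumed to vary like the other group, members called lower ranged from 4 to 7 (4 without ACBI1 replicate 1, 7 without ACBI1 replicate 2), other pathway genes from 7 to 14 lower and from 1 to 2 higher, and all genes from 964 to 2641 lower and from 415 to 1651 higher. These fits tested between 20007 and 20437 genes. In them the log2 changes ranged from -1.83 to -1.60 for PLAU, -3.64 to -3.11 for PLAUR and -7.11 to -3.57 for PLAT. For the serpins they ranged from -2.33 to -2.15 (SERPINE2) and -3.54 to -1.39 (SERPINB2). The ranges were -0.83 to -0.65 for F3, -1.50 to -0.060 for TFPI, -1.63 to -1.31 for TFPI2 and -2.34 to -0.48 for THBD. The log2 count ratio of PLAU to SERPINB2 ranged from -0.42 to 1.92 and that of F3 to TFPI from -0.76 to 0.85, so neither has a fixed direction. Where no cause is named, the cause was not tested.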
